A study of Mus musculus with 4 samples.

Results

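The RAF-MEK-ERK cascade genes described here are the RAF kinase genes Araf and Braf, the MEK genes Map2k1 and Map2k2, the ERK gene Mapk3 and the scaffold genes Ksr1 and Ksr2, 7 genes chosen by name. A gene was taken from the array when the platform annotation gave a row exactly 1 symbol equal to its name. This found 6 of the 7, each with 1 row, among 19938 genes so annotated. Mapk3 had no such row and is not analysed here. Every level below is therefore that of a RAF, MEK or KSR transcript, and nothing is said of ERK transcripts.

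The 4 samples came from primary lung fibroblast lines of mice aged 3 to 4 weeks, grown out of collagenase-digested lung in serum-containing medium without treatment and measured on Affymetrix arrays. Samples A and B of line 493 had the genotype KrasD12. The series text calls this line SKY, and the labels do not say what drives the allele or in which cells. Samples A and B of line 494 were wild type (WT). With 1 line per genotype, genotype and line cannot be told apart. The labels do not tell whether letters A and B stand for separate cultures, so p-values measure only the spread between these samples, which may be technical.

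Activated RAS recruits RAF kinases to the membrane, where they pair and become active. RAF phosphorylates the MEK kinases, MEK phosphorylates the ERK kinases, and ERK acts on cytoplasmic and nuclear targets, feedback inhibitors among them. KSR proteins resemble RAF, bind RAF, MEK and ERK together and promote MEK phosphorylation. The flow through this chain is set mainly by phosphorylation and complex assembly, which RNA levels do not measure.

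The deposited values are log2 expression values. Their column medians were 6.24 and 6.26 in KrasD12 against 5.90 and 5.91 in WT, and the median difference of all genes was 0.26. For this reason each gene was read on the deposited values and again after quantile normalization, which gives the 4 columns the same distribution. The words rose and fell are kept for genes where limma's adjusted p was under 0.05 in the same direction on both. The dim level, the 95th percentile of olfactory and vomeronasal receptor rows, was 5.15, and all 6 cascade genes lay above it.

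The labels describe a myofibroblast culture checked by immunofluorescence, and fibroblast transcripts were present. All 10 fibroblast markers lay above the dim level, with Col1a1 at 12.09 and 12.17 in KrasD12 and 12.76 and 12.69 in WT. Pdgfrb, the other defining marker, read 10.45 and 10.55 in KrasD12 and 11.02 and 10.97 in WT. Of the 10, 2 rose and 3 fell, beside 22.4% and 11.5% of all genes. The median difference of the 10 was -0.18 deposited and -0.02 after quantile normalization. The defining markers Epcam (epithelium), Pecam1 (endothelium), Ptprc (leukocytes) and Rgs5 (pericytes) lay below the dim level, while mesothelial Msln read 6.40 and 6.37 in KrasD12 and 6.58 and 6.98 in WT. Of 9 epithelial markers 5 were above the dim level on average. Sftpc and Sftpb (named after their values were seen) rose, by 0.92 and 0.70, and 0 fell. This was 22.2% of the list, beside 22.4% of all genes that rose, and Sftpc lay below the dim level on average. The linear signals of the 9 markers summed to 427 and 468 in KrasD12 against 331 and 335 for WT. The corresponding sums were 213 and 211 against 179 and 159 for 6 endothelial markers, and 261 and 262 against 203 and 204 for 6 measured leukocyte markers. Of these, 2 endothelial and 3 leukocyte markers lay above the dim level. Of 4 pericyte markers, 3 lay above it and 1, Cspg4 (named after its value was seen), rose by 0.76 (0.755); the list summed to 402 and 426 in KrasD12 and 362 and 347 in WT. Of 4 mesothelial markers 3 lay above it, with sums of 235 and 246 against 220 and 236. Smooth muscle and myofibroblast markers, Acta2, Tagln, Myh11, Cnn1 and Des, summed to 2055 and 1770 in KrasD12 and 5952 and 5616 in WT. Of these, 4 fell. Des, below the dim level on average, differed by 0.525 deposited and was not called on both scalings. All these sums are of deposited values, whose columns differ in median. Median differences of the epithelial, endothelial and leukocyte lists were 0.49, 0.30 and 0.455 deposited. After quantile normalization they were 0.17, -0.11 and 0.10. The pericyte and mesothelial medians were 0.27 and 0.33 deposited, and 0 and -0.05 quantile. That of the smooth muscle and myofibroblast list was -1.56 and -1.59. Whether these marker differences take part in the results below was not tested. In bulk RNA, fewer cells of a type and less RNA per cell cannot be told apart.

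Transcripts of the cascade differed little between KrasD12 and WT fibroblasts on the deposited and the quantile normalized values. Of the 6 genes, Map2k1 fell and none rose by the rule of both scalings, against 11.5% of all genes that fell and 22.4% that rose (33.9% in either direction). On the deposited values alone, Araf and Ksr2 were called higher and Map2k1 lower, 3 of 6, against 50.1% of all genes higher and 11.9% lower (62.1% together). After quantile normalization, Map2k1 and Ksr1 were called lower and none higher, against 24.4% of all genes lower and 22.5% higher (46.9% together). The largest absolute difference was 0.34 deposited and 0.32 quantile normalized. Median centring, which gives the 4 columns the same median, gave larger differences for some members. It called 4 of the 6 lower and 0 higher, beside 6657 genes lower and 3574 higher of all 19938. Those called were Map2k1 (-0.575), Ksr1 (-0.40), Braf (-0.325) and Map2k2 (-0.31). The median of the 6 differences was 0.03 deposited and -0.11 quantile, beside 0.26 and 0.00 (-0.00375) for all genes. Their median absolute difference was 0.14 deposited and 0.17 quantile, beside 0.33 and 0.26 for the 13824 genes above the dim level.

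**Figure D1:**
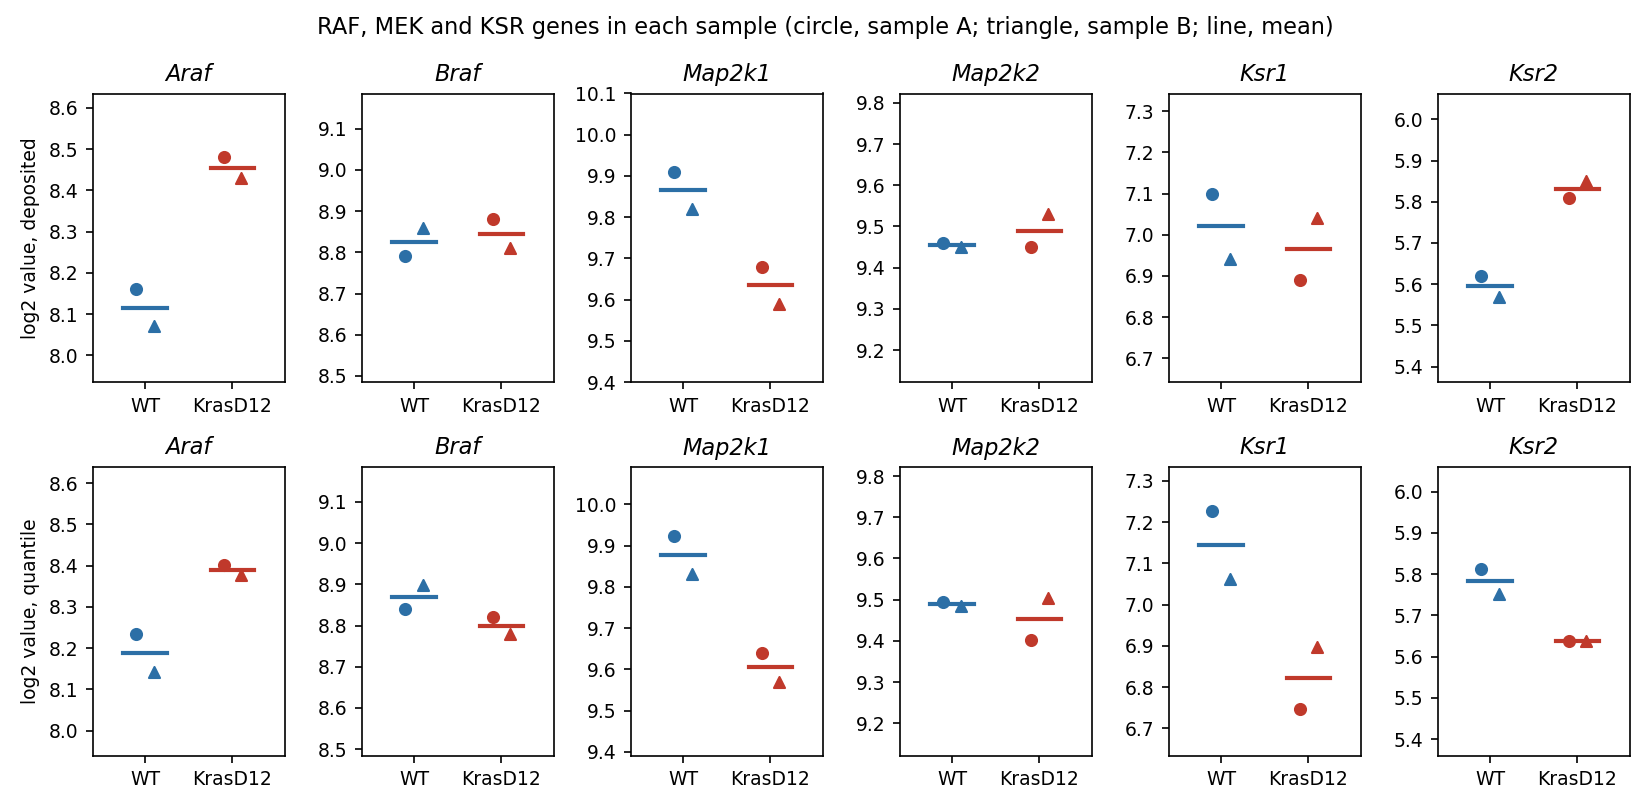
Log2 values of the 6 measured cascade genes in each sample, deposited (top) and quantile normalized (bottom). Each panel spans 0.7 log2 units around its own mean, circles are samples A, triangles samples B and lines group means. KrasD12 values of Map2k1 lie below both WT values in either row, while the deposited values of Braf, Map2k2 and Ksr1 interleave between the groups.

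The KrasD12 and WT samples did not overlap on the deposited values for Araf, Map2k1 and Ksr2, 3 of 6 genes. The same was true of 83% of all genes. Overlap was thus found for Braf, Map2k2 and Ksr1, whose groups interleaved. After quantile normalization only Map2k2 overlapped, and Braf read 8.82 and 8.78 in KrasD12 and 8.84 and 8.90 in WT. The share of all genes without overlap on that scaling is not given here, so no result is read from it.

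Map2k1 encodes MEK1, which phosphorylates ERK. It read 9.68 and 9.59 in the KrasD12 samples and 9.91 and 9.82 in the WT samples. Both KrasD12 values lay below both WT values. The means were 9.64 ± 0.06 and 9.87 ± 0.06 (SD, n = 2 each), so Map2k1 fell by 0.23 ± 0.08 in log2 units (limma adjusted p = 0.0427). The error of this and every later difference is the moderated standard error from limma. The 95% interval of the difference ran from -0.42 to -0.04. On a linear scale the WT mean was 1.17 times the KrasD12 mean. After quantile normalization the difference was -0.27 ± 0.08 (limma adjusted p = 0.0286). The median difference of the 1279 genes with a mean within 0.5 of Map2k1 was 0.06. The direction was the same in all 15 alternatives, and the call held in 9. It was lost when a change of 1.2-fold was tested (treat, limma adjusted p = 1), with the replicate letter as a block (-0.23, limma adjusted p = 0.0508), and without any 1 of KrasD12 A, KrasD12 B, WT A or WT B (differences from -0.275 to -0.185, limma adjusted p from 0.0968 to 0.173).

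Map2k2 encodes MEK2, the other ERK kinase kinase. It read 9.45 and 9.53 in KrasD12 and 9.46 and 9.45 in WT, so the groups overlapped. The difference was 0.04 (0.035) ± 0.07, with a 95% interval from -0.14 to 0.21 (limma adjusted p = 0.677), and -0.04 after quantile normalization. Median centring, which moves every gene by the gap between the column medians, gave -0.31 and a call (limma adjusted p = 0.0134).

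Braf encodes the RAF kinase with the highest basal activity toward MEK. It read 8.88 and 8.81 in KrasD12 and 8.79 and 8.86 in WT. The groups overlapped, and the difference was 0.02 ± 0.07 with a 95% interval from -0.16 to 0.20 (limma adjusted p = 0.819). After quantile normalization it was -0.07, with an interval from -0.25 to 0.11, and after median centring -0.325, which was called (limma adjusted p = 0.0137).

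Araf encodes the RAF kinase of low basal activity, and the gene lies on the X chromosome. It read 8.48 and 8.43 in KrasD12 and 8.16 and 8.07 in WT, so every KrasD12 value lay above every WT value. Means were 8.46 ± 0.04 and 8.12 ± 0.06 (SD, n = 2 each). The deposited difference was 0.34 ± 0.07 (limma adjusted p = 0.0104, 95% interval 0.16 to 0.52), the largest of the 6. After quantile normalization it was 0.20 ± 0.08 with limma adjusted p = 0.0678, and the call was not held. Centring each column on its median left -0.01 (-0.005). The 2945 genes of like mean had a median difference of 0.16, so 0.18 of the Araf difference lay beyond theirs. Sex-linked transcripts were read beside Araf. Kdm5d, Eif2s3y and Uty, on the Y chromosome, ranged from 7.99 to 8.89 in KrasD12 and from 7.21 to 9.04 in WT, and Xist lay below the dim level in all samples (4.03 to 4.36). Kdm5d and Uty rose by 0.785 and 0.55, while Eif2s3y differed by -0.205 and was not called on both scalings. Ddx3y, also listed, had no row with exactly 1 symbol.

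Ksr1 encodes the scaffold studied most in fibroblasts. It read 6.89 and 7.04 in KrasD12 and 7.10 and 6.94 in WT, with overlapping groups and the widest spread between A and B of the 6 genes (SD 0.11 in each group). The deposited difference was -0.06 (-0.055) ± 0.09 (limma adjusted p = 0.628). After quantile normalization the values were 6.75 and 6.90 in KrasD12 and 7.23 and 7.06 in WT, which no longer overlapped. The difference there was -0.32 ± 0.09 (limma adjusted p = 0.0302, 95% interval -0.55 to -0.10). The 2777 genes of like mean had a deposited median difference of 0.25, and Ksr1 lay 0.31 below it. Ksr1 was thus called lower relative to the other genes of the array, not on the values as deposited.

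Ksr2 encodes the second KSR scaffold, known for its part in energy balance and most abundant in brain. It read 5.81 and 5.85 in KrasD12 and 5.62 and 5.57 in WT, with no overlap, and both group means (5.83 and 5.60) lay close above the dim level. On the deposited values it was higher by 0.24 (0.235) ± 0.07 (limma adjusted p = 0.0283). After quantile normalization the direction turned, with -0.15 (-0.145) ± 0.07 (limma adjusted p = 0.144). The 3238 genes of like mean had a median difference of 0.39, above that of Ksr2.

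**Figure D2:**
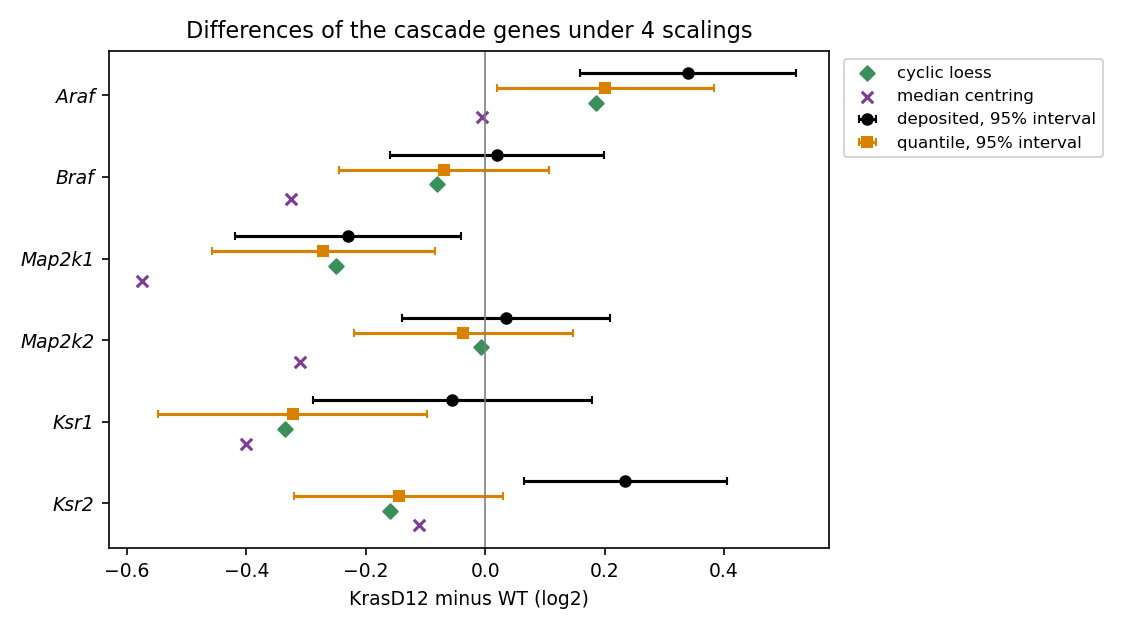
KrasD12 minus WT difference (log2) of each cascade gene, deposited and quantile normalized, with limma's 95% intervals, and after cyclic loess normalization and median centring, as points. Map2k1 stands below 0 on all 4 scalings (-0.23 to -0.58), Araf above 0 on all but median centring (-0.005), and Ksr2 changes sign between the deposited values and the others.

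The shift between the deposited columns was larger around dim genes. The plot of differences against mean level shows the deposited median near 0.39 around Ksr2, 0.25 around Ksr1 and 0.06 around Map2k1 and Map2k2 (0.065). Araf was the only measured cascade gene above the median of its like-mean genes. The other 5 lay below it, Map2k1 by 0.29 and Map2k2 by 0.03.

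**Figure D3:**
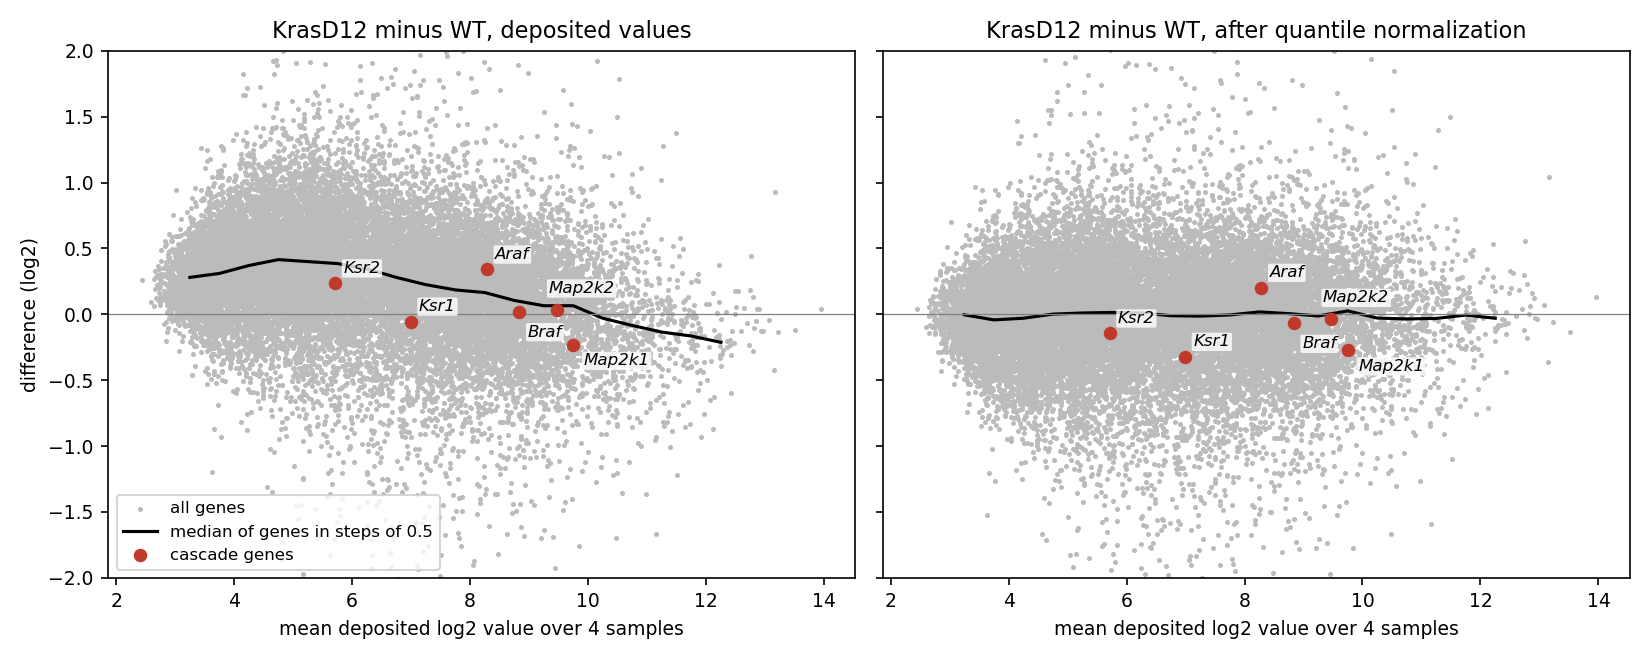
KrasD12 minus WT difference (log2) of every gene against its mean deposited log2 value over 4 samples, deposited (left) and quantile normalized (right). The black line is the median of genes in steps of 0.5, red points are the cascade genes, and 92 genes beyond ±2 in each panel are not drawn; the cascade genes lie inside the cloud, within 0.34 of 0.

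Paralogues were also compared as ratios within an array, from which a shift equal for all genes of a column cancels. The shift here depended on level, so part of it can remain where paralogues differ in mean. Like-mean medians were 0.25 for Ksr1 and 0.39 (0.385) for Ksr2, and 0.16 for Araf and 0.10 for Braf. For Map2k1 and Map2k2 they were 0.06 and 0.065. Only the change of a ratio between groups is read, since different probes do not share a scale. The log2 ratio of Map2k1 over Map2k2 was 0.23 and 0.06 in KrasD12 and 0.45 and 0.37 in WT, a change of -0.27 (-0.265). That of Araf over Braf was -0.40 and -0.38 in KrasD12 and -0.63 and -0.79 in WT, a change of 0.32. That of Ksr1 over Ksr2 was 1.08 and 1.19 against 1.48 and 1.37, a change of -0.29, or -0.18 after quantile normalization. In all 3 pairs the groups did not overlap, which was also true of 83% of single genes on the deposited values. Ratios of other gene pairs were not read, so this is no result about the 3 pairs. The changes exceeded the gap between samples A and B, which was at most 0.17. A two-sided exact permutation test gave p = 0.333 for each of the 3 pairs, the smallest that 2 samples against 2 allow, so none could pass a threshold. Adjusted over the 3 pairs these stay at 0.333.

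**Figure D4:**
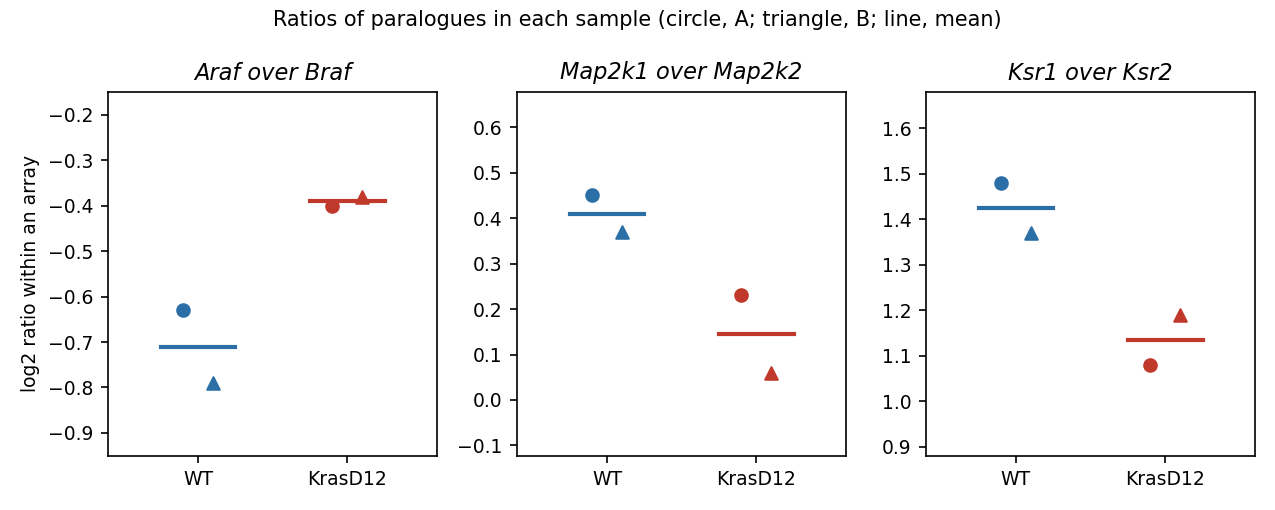
Log2 ratio of paralogous cascade genes within each array, for WT and KrasD12 samples A (circles) and B (triangles), with group means as lines and each panel spanning 0.8 log2 units. The ratio is higher in KrasD12 for Araf over Braf and lower for Map2k1 over Map2k2 and Ksr1 over Ksr2.

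By Euclidean distance over the 4 centred deposited values, the genes closest to Map2k1 were Slc35a1, Tmtc3 and Uchl5, at 0.017, 0.022 and 0.022. They differed by -0.24 (-0.235), -0.25 (-0.245) and -0.23 (-0.225). Of 13823 genes compared, 395 lay within 0.1 of Map2k1.

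The wider pathway was read through genes that regulate, anchor or parallel the cascade. Of 93 genes in 7 lists around the cascade, 86 had a row. Of these, 21 rose (24.4%) and 15 fell (17.4%) on both scalings, beside 22.4% and 11.5% of all genes, so the share that rose was near that of the whole array. The requirement of a call in 1 direction on all 4 scalings, with median centring and cyclic loess added, left 12 rises and 15 falls, where it left 16.2% and 11.5% of all genes (27.7% together). Median differences were 0.12 deposited and -0.04 quantile.

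Among 20 measured regulators that switch RAF and KSR on or off, 3 rose (15%) and 4 fell (20%). Over all genes 22.4% rose and 11.5% fell. The list median was 0.03 deposited and 0.04 quantile. Rap1a and Rap1b, RAS-related GTPases that bind RAF, fell. Rap1a read 8.52 and 8.43 in KrasD12 and 9.47 and 9.66 in WT, a difference of -1.09 ± 0.09 (limma adjusted p = 0.000876). Rap1b read 10.03 and 9.93 against 10.68 and 10.60 and differed by -0.66 ± 0.08 (limma adjusted p = 0.0017). Both RAP1 genes were thus lower in each KrasD12 sample, by more than any measured RAF, MEK or KSR gene. Mark2, a kinase whose relative Mark3 phosphorylates KSR1, rose by 0.58 (0.575). Further genes chosen after their values were seen were Pebp1, the RAF kinase inhibitor protein, which fell by 0.49 (-0.485), and Brap, a ubiquitin ligase that restrains KSR1, which rose by 0.42 (0.415). Shoc2, also chosen after its value was seen and part of the phosphatase complex that releases RAF inhibition, differed by 0.12 (0.115) and was not called. Rap1a, Rap1b, Pebp1 and Mark2 were called in the same direction on all 4 scalings. Brap was not, and read 0.07 after median centring.

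The 14-3-3 proteins hold phosphorylated RAF and KSR in their inactive or active shapes. Of 7 measured genes, 4 fell (57.1%) and 1 rose (14.3%), beside 11.5% and 22.4% of all genes. The median was -0.22 deposited and -0.25 quantile. Ywhae read 11.27 and 11.30 in KrasD12 and 11.81 and 11.78 in WT and differed by -0.51 ± 0.07 (limma adjusted p = 0.00232). Ywhah differed by -0.47 (-0.465), and Ywhab and Ywhag, named after their values were seen, were the other falls (-0.32 and -0.22). Ywhaq was the 1 rise, by 0.46 (0.455). It read 0.11 after median centring and was not called on all 4 scalings. The 4 falls were called on all 4 scalings.

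Of 16 other scaffolds and anchors of RAF, MEK and ERK, 4 rose (25%) and 3 fell (18.8%), beside 22.4% and 11.5% of all genes. The share that rose was near that of all genes. The median was 0.04 deposited and -0.07 quantile. Il17rd, also known as SEF, a membrane inhibitor that keeps active MEK and ERK out of the nucleus, read 8.71 and 8.70 in KrasD12 and 6.77 and 6.98 in WT. It rose by 1.83 ± 0.09 (limma adjusted p = 0.000352) and by 1.65 after quantile normalization, the largest difference in the 7 lists. Iqgap2, a relative of the MEK and ERK scaffold Iqgap1, rose by 0.93 (0.925), or 0.56 after quantile normalization. Iqgap1 itself, named after its value was seen, differed by -0.04 and was not called. Arrb2, a beta-arrestin that ties ERK to receptors, rose by 0.67 (0.665), or 0.37 after quantile normalization. The adaptor subunits Lamtor3, a MEK1 partner on endosomes, and Lamtor2 fell by 0.32 (-0.315) and 0.24, while Lamtor1, which anchors them, rose by 0.49 (0.485). These Lamtor genes were named after their values were seen, and Lamtor1, at 0.14 after median centring, was not called on all 4 scalings.

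Genes of the proteins that ERK acts on were mostly higher. Of 9 measured ERK-activated kinases and ternary complex genes, 6 rose and 1 fell, beside 22.4% and 11.5% of all genes, and the median was 0.53 deposited and 0.23 quantile. Rps6ka6, which encodes the ribosomal S6 kinase RSK4, read 6.86 and 6.61 in KrasD12 and 5.53 and 5.72 in WT and rose by 1.11 ± 0.12 (limma adjusted p = 0.00138), or 0.76 after quantile normalization. Rps6ka3, which encodes RSK2, read 8.36 and 8.25 against 9.42 and 9.32 and differed by -1.07 (-1.065) ± 0.08 (limma adjusted p = 0.000718). Rps6ka6 and Rps6ka3 thus moved in opposite directions. Neither overlapped between groups on the deposited values, as was true of 83% of all genes. Rps6ka5, also in this list and named after its value was seen, rose by 0.56, or 0.23 after quantile normalization. Elk3, an ETS factor that binds DNA with SRF, rose by 0.60 (0.595), and its relative Elk1, named after its value was seen, by 0.59. Elk4 (0.05) and Srf (-0.125, or -0.27 after quantile normalization) were not called on both scalings and were named after their values were seen. Of the 6 rises, 3 were also called after both median centring and cyclic loess normalization.

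In the parallel MAP kinase cascades, a few kinase genes rose and most were not called, as was true of all genes (13181 of 19938 not called). Over all genes 22.4% rose and 11.5% fell. The shares were 26.3% and 5.26% for the MAP3 kinases below. They were 25% and 0% for the MAP2 kinases and 9.09% and 18.2% for the MAP kinases. Of 19 other MAP3 kinases, 5 rose and 1 fell, with a median of 0.17 (0.165) deposited and -0.11 quantile. Mos, the germ-cell MEK kinase, rose by 0.79 with both group means under the dim level. Map3k6 and Map3k11 rose by 0.78 and 0.72 (0.715), or 0.43 (0.425) and 0.52 after quantile normalization. Map3k8, which also phosphorylates MEK and was named after its value was seen, differed by 0.11 (0.105) and was not called. Of 4 measured MAP2 kinases of the p38, JNK and ERK5 routes, Map2k6 rose, with 7.31 and 7.24 in KrasD12 and 6.35 and 6.15 in WT (1.03 (1.025) ± 0.09, limma adjusted p = 0.000992). Map2k5, the ERK5 kinase gene, stood at 0.23, or 0.14 and uncalled after quantile normalization. Of 11 other MAP kinases, the p38 gene Mapk13 rose by 0.72 (0.715), and Mapk4, an atypical ERK relative, and the p38 gene Mapk11 fell by 0.48 (-0.475) and 0.26. The other 8 were not called on both scalings.

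**Figure D5:**
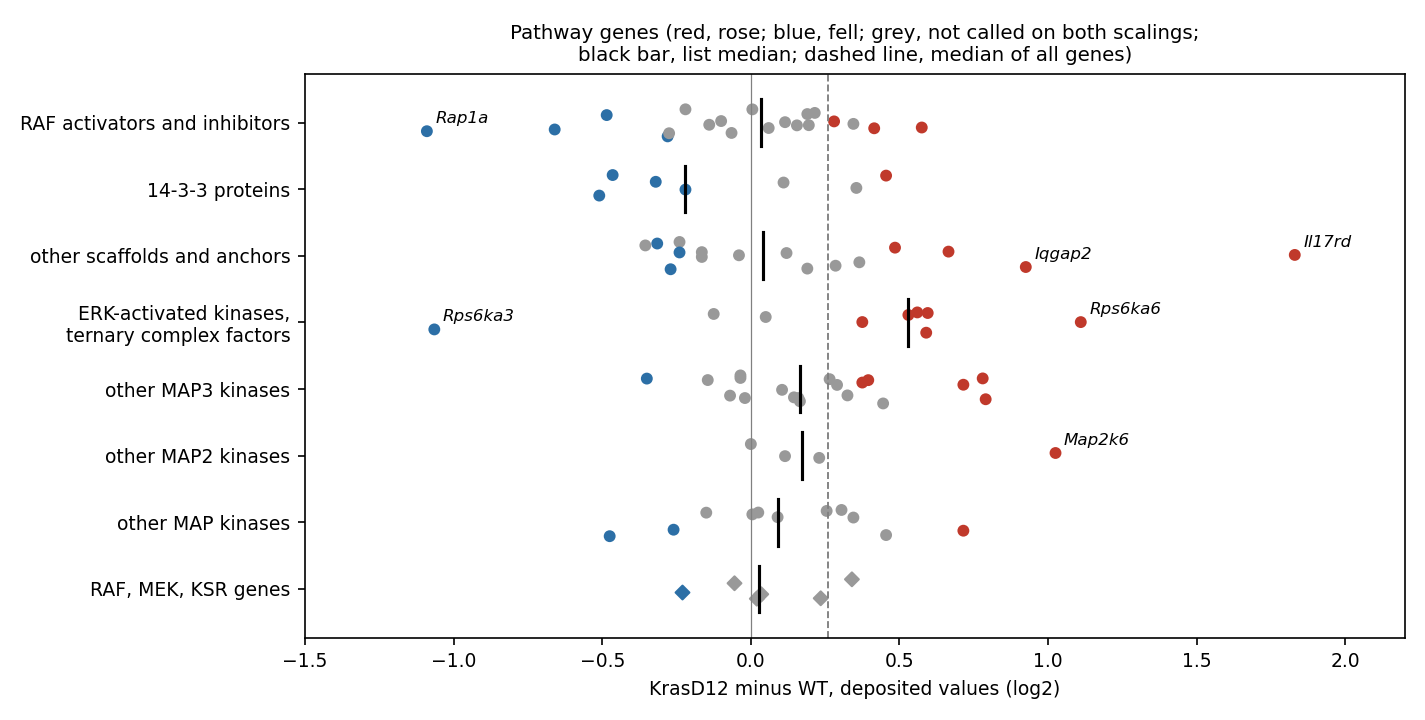
KrasD12 minus WT differences (log2, deposited values) of the 86 measured genes in 7 pathway lists and of the 6 cascade genes (diamonds). Red genes rose and blue genes fell on both scalings, grey genes were not called, black bars are list medians and the dashed line is the median of all genes (0.26). The cascade genes span -0.23 to 0.34, while Il17rd reaches 1.83 and Rap1a -1.09.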

How the data were processed

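The authors deposited 1 table of log2 expression values (28944 array rows, 4 samples). Transcriptome Analysis Console was used, per the submitters' processing notes. Not given in the sources used here: its version, background correction and normalization. GEO's platform annotation gave 21789 rows exactly 1 symbol, 1621 several and 5534 none, and 21698 took current names through the RefSeq table of GRCm38.p6. The row with the highest mean stood for each of 19938 genes. Genes were tested across the whole table in R 4.3.3 by limma 3.58.1 (eBayes after lmFit, group as the only term, two-sided, Benjamini-Hochberg over all genes, threshold 0.05). With 2 samples per group, 2 residual degrees of freedom remain, and the number of arrays limits the precision. The script was tested on simulated data. Alternatives were quantile, cyclic loess and median scaling, the replicate letter as a block, leaving out dim genes, robust or trended eBayes, averaging the rows of a gene, testing every row, limma's treat at 1.2-fold and each sample left out. Files were handled with data.table (1.17.8) and pandas 2.3.3 and plotted with matplotlib 3.10.9.

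Of each pathway list the text names up to 3 genes called on both scalings and largest by deposited difference. Lists with fewer than 2 such genes give their 2 largest instead. It also names all cascade genes, defining cell markers, sex-linked genes and the 3 genes nearest to each cascade gene called on both scalings. Genes named outside this rule are said to be so where they appear. The members, lists and alternatives were chosen with earlier results of these data known.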

Additional observations from a re-analysis of the deposited data

How the results depend on the processing

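Map2k1 kept its direction in all 15 alternatives and was called in 9 of them. Under the other scalings Araf and Ksr2 lost their calls, and Ksr1 kept its direction and gained one. Braf, Map2k2 and Ksr2 turned, and Araf did so under median centring alone (-0.005). Median centring also called Braf and Map2k2 lower. The cause was not tested. Quantile normalization gave 0.20 for Araf, -0.069 for Braf, -0.036 for Map2k2, -0.32 for Ksr1 and -0.15 (-0.145) for Ksr2, with 0 members called higher and 2 lower, 4485 genes higher and 4861 lower, 26 pathway genes lower, and -0.18 for the ratio of Ksr1 over Ksr2. Median centring gave -0.005, -0.33 (-0.325), -0.31, -0.40 and -0.11 in the same order, 0 members higher and 4 lower, 3574 genes higher and 6657 lower, and 12 pathway genes higher and 44 lower. Cyclic loess gave 0.19, -0.081, -0.0075, -0.33 and -0.16, 0 members higher and 2 lower, 4533 genes higher and 4933 lower, 20 pathway genes higher and 26 lower, and -0.18 for the Ksr ratio.

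The letters A and B did not pair the samples by label, and A minus B correlated across genes at 0.01 between groups. With the replicate letter as a block on the deposited values, Map2k1 (-0.23) and Ksr2 (0.235) lost their calls, leaving 1 member higher and 0 lower. With quantile normalization and the replicate block, values were 0.20, -0.069, -0.036, -0.32 and -0.15 (-0.145) for Araf, Braf, Map2k2, Ksr1 and Ksr2, with 0 members higher and 2 lower and 4521 genes higher and 4873 lower. EBayes with a trend left Ksr2 (0.235) uncalled and 1 member higher. Treat at 1.2-fold called 0 members in either direction (Araf 0.34, Map2k1 -0.23, Ksr2 0.235), 0 of them at an unadjusted p under 0.05, and 4753 genes higher and 955 lower. Over the alternatives, limma's adjusted p ran from 0.00226 to 0.962 for Araf and from 0.00208 to 1 for Map2k1.

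With 1 sample left out, the lone sample of a group is assumed to vary like the other group. Differences then ran from 0.295 to 0.385 for Araf, -0.015 to 0.055 for Braf, -0.275 to -0.185 for Map2k1, -0.005 to 0.075 for Map2k2, -0.135 to 0.025 for Ksr1 and 0.21 to 0.26 for Ksr2. No cascade gene was called by limma (0 higher, 0 lower; 1 or 2 at an unadjusted p under 0.05). Genes called ran from 0 to 4623 higher and from 0 to 1160 lower. Both counts were 0 without WT A or without WT B, with 9846 and 10022 genes at an unadjusted p under 0.05.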

Other observations

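The genes next to the cascade genes on the chromosome were read as a description, by a rule added after the data were seen, as were the neighbours named: the 3 measured genes on each side in the order of the RefSeq gene table. Of these 36 genes, 11 rose and 4 fell, which left 21 without a call shared by both scalings. Over all genes 22.4% rose and 11.5% fell, so these counts are no result about the neighbours. The 6 neighbours of Araf held 4 of the calls. Timp1, an inhibitor of matrix metalloproteinases, read 8.75 and 8.83 in KrasD12 and 9.89 and 9.94 in WT and differed by -1.13 (-1.125) ± 0.07 (limma adjusted p = 0.000542). Its neighbour Cfp, the complement protein properdin, read 6.94 and 7.05 against 5.75 and 6.14 and rose by 1.05 ± 0.14 (limma adjusted p = 0.00254), or 0.73 after quantile normalization. Usp11, a deubiquitinase gene on the other side of Araf, rose by 0.96 (0.955), or 0.77 (0.765) after quantile normalization, and Cdk16 by 0.30 (0.295). Genes beside Araf thus went both ways, with differences larger than that of Araf itself (0.34) for Timp1, Cfp and Usp11. Rbm10 (0.415) and Syn1 (0.42), not called on both scalings, also exceeded it on the deposited values.

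Beside Ksr2, Nos1, the neuronal nitric oxide synthase gene, read 6.26 and 6.34 in KrasD12 and 5.29 and 5.24 in WT and rose by 1.04 (1.035) ± 0.07 (limma adjusted p = 0.00063), or 0.67 after quantile normalization, and Fbxo21 rose by 0.65. Beside Ksr1, the RAS GTPase-activating gene Nf1 rose by 0.49 and the galectin gene Lgals9 differed by -0.45. Beside Map2k1, genes were called in both directions. The small nucleolar RNA gene Snord16a rose by 0.78 (0.775) ± 0.07 (limma adjusted p = 0.0011), and Tipin, a replication fork protein gene, differed by -0.63 (-0.625) ± 0.11 (limma adjusted p = 0.00546).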
